A study of Mus musculus with 4 samples.

Results

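The enzymes and remodellers that set the state of chromatin were examined in cultured mouse vascular smooth muscle cells. They comprise the histone deacetylases (Hdac) and sirtuins (Sirt), the SNF2-type and CHD remodellers, the histone methyltransferases of the Setd, Prmt and Polycomb groups, the lysine demethylases, the bromodomain proteins, the p300/CBP acetyltransferases, and the enzymes that add or oxidise DNA methylation (Dnmt, Tet). Members were chosen by gene symbol, not by a measured value, though with earlier results of these data known. They numbered 88 of the 25965 rows of the deposited table. They stood for 87 genes, because Hdac4 occupied 2 neighbouring rows.

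Polyadenylated RNA was sequenced in 4 libraries of 1 group, wild-type cells from the aortic medial layer of healthy male C57Bl/6 mice aged 8 to 14 weeks. The medial cells had been freed with collagenase and elastase and passaged 3 to 5 times in DMEM with serum, penicillin/streptomycin and glutamine, a condition that all libraries shared. There was no second group, so levels were compared between genes within a library and between libraries of the same kind. The labels do not say whether the libraries came from separate animals or pools, and the spread between them may therefore be partly technical.

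Chromatin is opened or closed by 3 kinds of activity described here. Writers and erasers place and remove acetyl and methyl groups on histone tails or on cytosine, readers such as bromodomain proteins bind these groups, and remodellers use ATP to slide or evict nucleosomes. In smooth muscle, deacetylases of the MEF2-binding class, the SWI/SNF ATPases, the Polycomb complex PRC2 and TET2 have been studied as regulators of the switch between the contractile and the dividing state.

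The libraries held 40342561 to 56793195 reads on genes, as recovered from the table, and the members took 0.322% to 0.465% of them. All 9 smooth muscle markers were detected in every library, with 111665 to 505132 summed reads. The 8 adventitial fibroblast markers had 7 detected and 67192 to 122255 summed reads, of which Gsn took 63824 to 95363, while Dpt had 4133, 3750, 110 and 111. The 8 endothelial markers had 5 detected and 3124 to 4508 summed reads, or 1891, 1415, 1519 and 736 without Erg. The 8 leukocyte markers had 2 detected and 297 to 1760 summed reads. The detected ones were Lyz2 with 927, 441, 68 and 39 reads and Csf1r with 564, 581, 187 and 296. Cd3e had 0 reads in all libraries. In bulk RNA, fewer cells of a type and less RNA per cell cannot be told apart. The libraries were distinct, since between any 2 of them the chi-square per degree of freedom over genes was 102 to 591. Library 3 was the shallowest. Fibroblast markers and the 2 detected leukocyte markers separated libraries 1 and 2 from 3 and 4.

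CpG-rich promoter sequence is bound by several of the encoded proteins, and CG is the substrate of the DNA methyltransferases. RefSeq (GRCm38.p6) listed a start within 1000 bases of the deposited outer end for 64 of 87 genes, and 57 of these windows (89.1%), each 250 bases before to 50 after the start, had a CpG content above 0.6 of that expected from their base composition. The share over all 32841 RefSeq windows was 35.8%. That set took every listed start of every gene, detected or not, while each member gave only the start nearest its outer end. The sets are therefore unlike, here and in the next comparisons. The median number of CpG was 23.5 in the members and 7 over all windows. The letters TATAAA stood on either strand in 2 of the 64 members' windows, against 13.6% of all windows. The windows shown belong to Prmt1 and Dnmt1, the highest genes of their classes, and to their relatives Prmt8 and Dnmt3l, which were below detection. Capitals mark each CG, and all are written 5′ to 3′ along the gene's strand. The first is Prmt1 (chr7:44986371-44986670, minus strand, 17 CpG), the second Prmt8 (chr6:127769110-127769409, minus strand, 43 CpG). They are followed by the outer Dnmt1 start (chr9:20959839-20960138, minus strand, 2 CpG), an inner Dnmt1 start (chr9:20952574-20952873, minus strand, 33 CpG) and Dnmt3l (chr10:78042037-78042336, plus strand, 6 CpG).
Prmt1: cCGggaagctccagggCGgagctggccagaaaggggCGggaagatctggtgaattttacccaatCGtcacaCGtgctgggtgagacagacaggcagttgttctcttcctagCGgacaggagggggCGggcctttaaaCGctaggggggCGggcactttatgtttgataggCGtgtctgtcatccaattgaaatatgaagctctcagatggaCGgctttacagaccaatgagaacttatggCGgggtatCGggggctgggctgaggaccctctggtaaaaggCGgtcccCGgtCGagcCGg
Prmt8: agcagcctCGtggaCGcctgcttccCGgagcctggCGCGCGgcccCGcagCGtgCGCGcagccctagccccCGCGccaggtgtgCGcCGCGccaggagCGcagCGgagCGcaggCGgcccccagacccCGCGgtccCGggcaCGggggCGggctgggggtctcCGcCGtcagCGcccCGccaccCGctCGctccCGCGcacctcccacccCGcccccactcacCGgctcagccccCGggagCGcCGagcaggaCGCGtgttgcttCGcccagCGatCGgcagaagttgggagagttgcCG
Dnmt1: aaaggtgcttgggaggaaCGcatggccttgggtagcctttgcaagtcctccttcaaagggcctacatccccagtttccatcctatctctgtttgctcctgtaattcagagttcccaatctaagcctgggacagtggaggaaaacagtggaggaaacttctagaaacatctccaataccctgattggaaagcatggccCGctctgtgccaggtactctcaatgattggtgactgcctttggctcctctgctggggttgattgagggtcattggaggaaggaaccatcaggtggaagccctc
Dnmt1 inner start: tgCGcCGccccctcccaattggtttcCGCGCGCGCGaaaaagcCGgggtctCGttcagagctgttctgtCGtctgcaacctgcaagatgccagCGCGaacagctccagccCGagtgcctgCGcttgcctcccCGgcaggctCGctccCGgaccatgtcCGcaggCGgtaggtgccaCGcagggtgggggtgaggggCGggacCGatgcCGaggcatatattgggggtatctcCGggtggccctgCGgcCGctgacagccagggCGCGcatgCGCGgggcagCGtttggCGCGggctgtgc
Dnmt3l: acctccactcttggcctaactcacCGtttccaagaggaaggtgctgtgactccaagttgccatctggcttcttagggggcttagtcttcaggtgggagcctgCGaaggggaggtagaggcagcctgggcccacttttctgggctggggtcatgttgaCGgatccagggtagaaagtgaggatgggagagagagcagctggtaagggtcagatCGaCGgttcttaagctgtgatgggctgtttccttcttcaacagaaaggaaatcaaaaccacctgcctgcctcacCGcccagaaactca
Of the windows shown, that of Prmt8 was richest in CpG although the gene was without reads, and those of the Dnmt1 starts held 2 and 33. RefSeq lists another Dnmt1 start between them, with 12 CpG. Tet2, a gene of low level, had the most CpG of the 64 windows (57). The table gives 1 value per row and does not say which Dnmt1 start was used.

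Of the 88 rows, 81 (92.0%) were detected, meaning that their deposited log2 value reached 0 in each library, which took 22 to 30 reads. Of all rows deposited, 47.4% met this. The 7 rows below detection were Prmt8, Dnmt3b, Dnmt3l, Tet1, Chd7, Kdm6a and Hdac9. Of these, Chd7, Kdm6a and Hdac9 missed the threshold in library 3 alone, and without that library 84 rows were detected. Levels of different genes are compared below as log2 scaled reads per kb of exon, called the level, with mean ± SD over the libraries (n = 4). Exon lengths were the union of annotated exons inside each row. On this scale the members lay near the middle of the detected genes: their median in a library averaged 2.73 ± 0.43, and 39 of 81 detected rows (48.1%) had a mean above 3.00, the median over all detected genes.

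**Figure D1:**
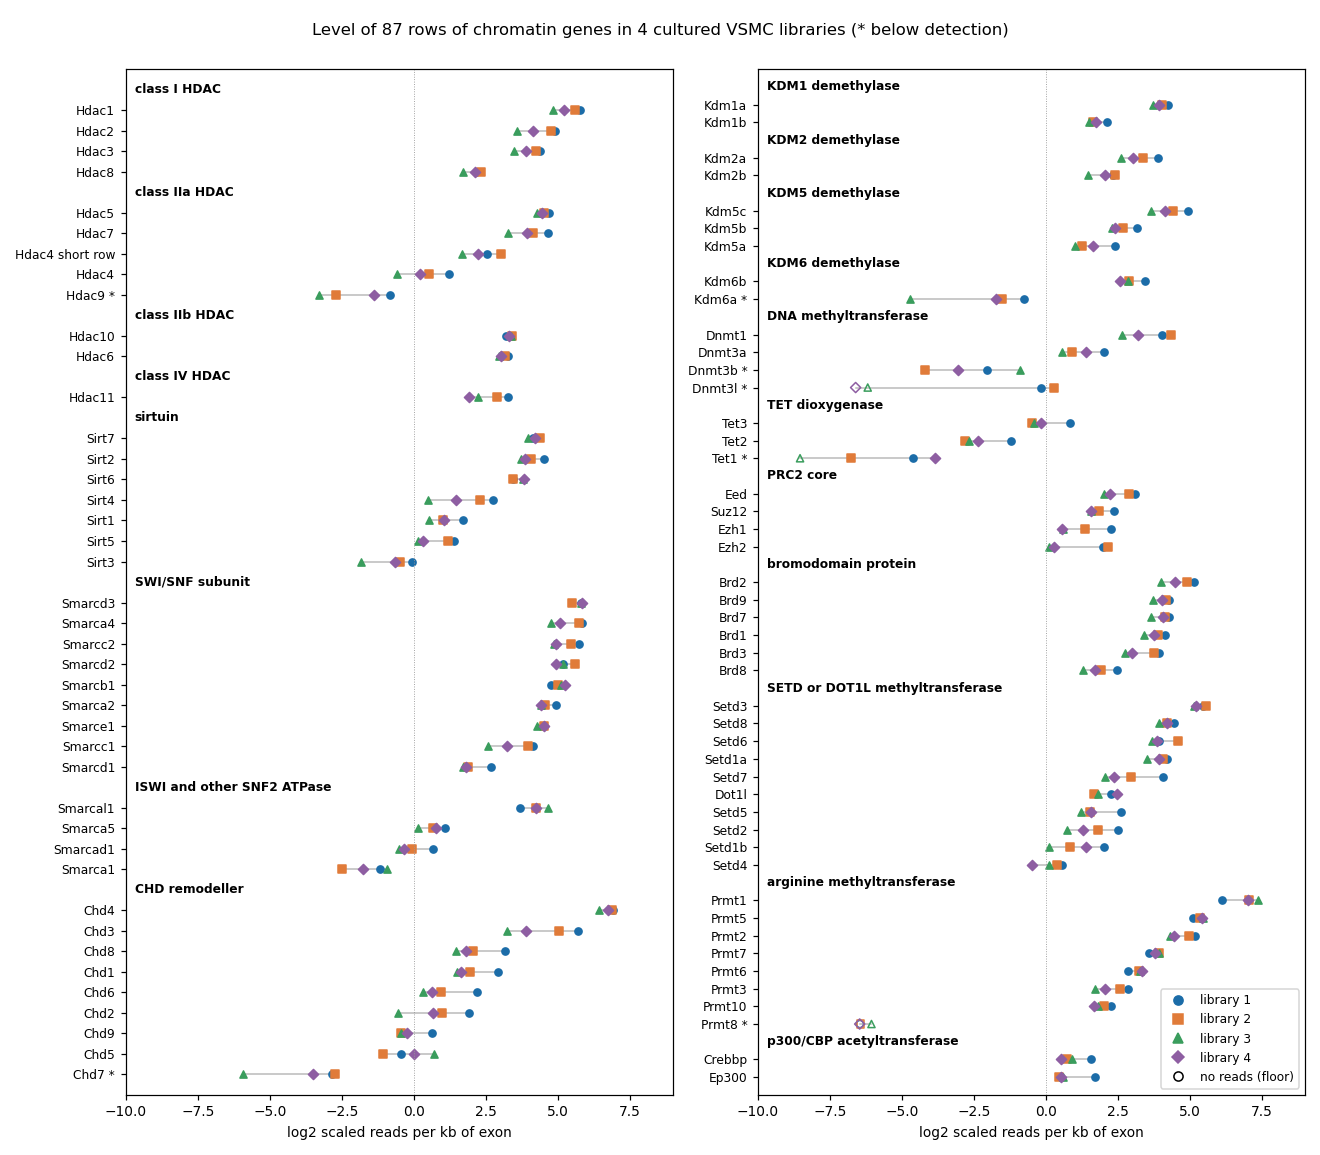
Level of 87 of the 88 rows (log2 scaled reads per kb of exon, x axis) in libraries 1 to 4, by enzyme class; grey lines join the lowest and highest library, open symbols have no reads and asterisks mark rows below detection. Prmt1 (6.89 ± 0.55) and Chd4 (6.74 ± 0.23) stand highest, and Prmt8, without reads, and Tet1 lowest.

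The class I deacetylases, the catalytic subunits of the large nuclear corepressor complexes, were all detected. Hdac1, found in the NuRD, SIN3 and CoREST complexes, had the highest level of the class, with 5.77, 5.59, 4.83 and 5.20 in libraries 1 to 4 (chromosome 4, 129516104 to 129542713, GRCm38). Its close paralog Hdac2 had 4.89, 4.76, 3.59 and 4.13 and was lower within every library, by 1.01 ± 0.19 on the log2 scale (2.01-fold). Hdac3, the catalytic subunit of the NCoR complexes, had 4.37, 4.25, 3.48 and 3.91, below Hdac2 in each library. Hdac8, which acts on cohesin, was lowest with 2.16, 2.33, 1.72 and 2.11, below Hdac3 by 1.92 ± 0.20 and apart from it in every library.

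Class IIa deacetylases shuttle between nucleus and cytoplasm and bind MEF2 factors, and their members were spread over a wide range. Hdac5 had 4.68, 4.51, 4.29 and 4.45, and Hdac7, prominent in vascular cells, 4.64, 4.15, 3.26 and 3.92. Hdac4 was deposited as a long row (chromosome 1, 91932757 to 92148393) at 1.23, 0.52, -0.58 and 0.22 and a short row (91928785 to 91931176) at 2.55, 3.02, 1.68 and 2.23. An antisense gene, Gm26720, overlaps 32.3% of the exon bases of the long row. Hdac5 exceeded the long Hdac4 row by 4.14 ± 0.59, or by 3.49 when the reads and lengths of the Hdac4 rows were added together. Hdac9, the class member linked to large-artery disease in human genetics, was below detection with 118, 32, 16 and 82 reads, and Hdac7 exceeded it by 6.05 ± 0.78 (66.3-fold).

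The class IIb genes had the smallest spread of the deacetylases on the deposited scale (SD 0.09 and 0.14). Hdac10, a polyamine deacetylase, had 3.21, 3.42, 3.36 and 3.29, and Hdac6, the cytoplasmic tubulin deacetylase, 3.27, 3.17, 2.95 and 3.03. Their difference (-0.22 ± 0.20 for Hdac6 minus Hdac10) had 1 sign in 3 of 4 libraries. Hdac11, the sole class IV enzyme, had 3.27, 2.90, 2.22 and 1.90, and an antisense overlap covers 15.4% of its exon bases.

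Sirtuins are NAD-dependent deacylases of the nucleus, cytoplasm or mitochondria, and all 7 were detected. The nucleolar Sirt7 had the highest mean with 4.15, 4.38, 3.97 and 4.20, and the mostly cytoplasmic Sirt2 overlapped it with 4.52, 4.06, 3.73 and 3.87. With the longest transcript as length Sirt2 was higher (mean 5.29 against 4.83), so no order is given for Sirt7 and Sirt2. The nuclear Sirt6 had 3.43, 3.43, 3.80 and 3.83 and lay below Sirt7 by 0.55 ± 0.35. Sirt1, the nuclear enzyme most studied in arteries, was lower with 1.71, 1.01, 0.52 and 1.05, below Sirt2 in each library, by 2.97 ± 0.20.

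The mitochondrial sirtuins were the low end together with Sirt1. Sirt4 had 2.73, 2.29, 0.49 and 1.45 and Sirt5 1.40, 1.20, 0.13 and 0.31, with library 3 lowest for both. Sirt3, the main mitochondrial deacetylase, was the lowest detected sirtuin with -0.06, -0.49, -1.83 and -0.65, or 37 to 166 reads, and lay below Sirt5 by 1.52 ± 0.43.

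SWI/SNF subunits had the highest median level of the 19 classes, 5.03, with 9 of 9 detected. Smarcd3, the BAF60C subunit of heart and muscle, led with 5.82, 5.48, 5.81 and 5.85 (chromosome 5, 24590818 to 24602012), but 54.3% of its exon bases overlap genes on the other strand (Chpf2, Mir671), and the strand setting of the counting is not given. Its paralog Smarcd2 had 5.17, 5.59, 5.18 and 4.93, and Smarcd1, the lowest subunit, had 2.68, 1.87, 1.71 and 1.82. Smarcd1 was thus 3.72 ± 0.45 below Smarcd3 and 3.20 ± 0.53 below Smarcd2. The core subunit Smarcb1 averaged 5.03 ± 0.22 and Smarce1 4.45 ± 0.11. The scaffold Smarcc2 had 5.75, 5.44, 4.87 and 4.95 and its paralog Smarcc1 4.15, 3.97, 2.59 and 3.22. Smarcc2 exceeded Smarcc1 by 1.77 ± 0.36 in 4 of 4 libraries.

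The order of the SWI/SNF ATPases depended on the length used. Smarca4, encoding BRG1, had 5.85, 5.72, 4.75 and 5.07, and Smarca2, encoding BRM, 4.94, 4.54, 4.41 and 4.41. With all annotated exons Smarca4 was higher by 0.77 ± 0.36 in each library, but with the longest transcript of each gene the difference was -0.47 and without division by length -0.36. No order is therefore given.

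Of the other SNF2-type ATPases the highest was Smarcal1, a DNA-annealing helicase of stalled replication forks. Smarcal1 had 3.69, 4.25, 4.66 and 4.25, and was lowest in library 1, against the direction of most members. Smarca5, the ISWI ATPase SNF2H, had 1.08, 0.65, 0.14 and 0.77. It exceeded its paralog Smarca1, with -1.19, -2.51, -0.94 and -1.76 or 31 to 78 reads, by 2.26 ± 0.87. Smarcad1 averaged -0.06 ± 0.51.

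In the CHD family 8 of 9 genes were detected, across the widest range of detected levels of any class. Chd4, the main ATPase of the NuRD complex, had 6.92, 6.89, 6.42 and 6.73 (chromosome 6, 125095981 to 125130591), above 92.1% of detected genes. Chd3, its alternative in NuRD, had 5.71, 5.05, 3.23 and 3.89, and Chd5, the form known from neurons and testis, -0.46, -1.09, 0.70 and -0.01. Chd4 exceeded Chd3 by 2.27 ± 0.91 and Chd5 by 6.95 ± 0.97. Library 3 was thus the lowest for Chd3 and the highest for Chd5.

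The remaining CHD genes were low to moderate. Chd8 had 3.18, 2.04, 1.45 and 1.80, Chd6 2.19, 0.95, 0.32 and 0.64, and Chd9 averaged -0.13 ± 0.51. Chd1, which binds methylated histone at active genes, had 2.92, 1.95, 1.48 and 1.63. Chd2 had 1.92, 0.96, -0.55 and 0.66, with 18.0% of its exon bases shared with 1810026B05Rik on the same strand, and lay 1.25 ± 0.52 below Chd1. Chd7, the gene of CHARGE syndrome in humans, was below detection with 56, 60, 5 and 36 reads, and the 5 reads of library 3 carry an exact 95% Poisson interval of 1.62 to 11.7. Chd8 exceeded Chd7 by 5.86 ± 1.13.

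Lysine demethylases were mostly moderate. Kdm1a, encoding LSD1 of the CoREST complex, had 4.24, 4.03, 3.70 and 3.92, and Kdm1b 2.11, 1.64, 1.48 and 1.72. The difference was 2.23 ± 0.11, the smallest spread of the 30 pairs compared. Kdm2a, with a CpG-binding domain, had 3.90, 3.36, 2.59 and 3.02 and its paralog Kdm2b 2.34, 2.39, 1.46 and 2.04, a difference of 1.16 ± 0.28. In the KDM5 group, which removes the methyl mark of active promoters, Kdm5c was highest with 4.94, 4.42, 3.63 and 4.15, followed by Kdm5b with 3.15, 2.66, 2.29 and 2.41. Kdm5a was lowest with 2.38, 1.24, 1.00 and 1.64. Kdm5c exceeded Kdm5a by 2.72 ± 0.31 and Kdm5b exceeded it by 1.06 ± 0.34.

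The erasers of the Polycomb mark were unequal. Kdm6b, encoding JMJD3, had 3.43, 2.90, 2.86 and 2.58, while the X-linked Kdm6a, encoding UTX, was below detection with 143, 84, 7 and 75 reads. The difference was 5.13 ± 1.64 over the 4 libraries, and 4.31 without library 3, where Kdm6a had its 7 reads.

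Of the 4 genes of DNA methylation, the maintenance enzyme Dnmt1 was highest. Its levels were 4.02, 4.35, 2.64 and 3.19 (chromosome 9, 20907206 to 20959888), highest in library 2 and lowest in library 3. The de novo enzyme Dnmt3a had 2.01, 0.91, 0.57 and 1.38, and Dnmt1 exceeded it by 2.33 ± 0.75. Dnmt3b, the other de novo enzyme, was below detection with 36, 8, 60 and 18 reads. Dnmt3a exceeded Dnmt3b by 3.77 ± 1.60, and by 4.54 without library 3, in which Dnmt3b was highest.

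Dnmt3l, the germ-line cofactor without catalytic activity whose window is printed above, split the libraries. Its counts were 77 (library 1) and 104 (library 2), but 0 in both others, where a count of 0 allows up to 3 reads (one-sided 95% limit). Only libraries 1 and 2 reached the detection threshold for this gene.

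TET dioxygenases, which oxidise methylcytosine, were among the lowest members. Tet3 had 0.85, -0.48, -0.42 and -0.16, and Tet2, the form studied in contractile smooth muscle, -1.22, -2.81, -2.69 and -2.35, or 210, 69, 57 and 97 reads. Tet3 exceeded Tet2 by 2.21 ± 0.12. Tet1 was below detection with 18, 4, 0 and 31 reads. Tet2 exceeded Tet1 by 3.68 ± 1.79, a value that contains library 3 at its floor without Tet1 reads, and by 2.96 without library 3 and 4.41 without library 4.

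All 4 core genes of PRC2, the complex that writes the Polycomb mark, were detected at modest levels. Eed, which binds the mark, had 3.09, 2.89, 2.02 and 2.21, and the scaffold Suz12 averaged 1.83 ± 0.38. The catalytic subunit Ezh2, typical of dividing cells, had 1.98, 2.14, 0.11 and 0.28, and its paralog Ezh1, typical of resting cells, 2.27, 1.34, 0.60 and 0.57. Libraries 1 and 2 were higher than libraries 3 and 4 for both genes. Ezh2 minus Ezh1 was -0.07 ± 0.59, from 0.80 in library 2 to -0.49 in library 3, and 0.41 with the longest transcript of each gene, so neither was placed above the other.

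The bromodomain genes were all detected (7 of 7). Brd2 and Brd3 read acetylated histones through paired bromodomains. Brd2 was the highest of the class with 5.14, 4.90, 3.98 and 4.47, and Brd3 had 3.91, 3.74, 2.76 and 2.99, lower than Brd2 in each library. Brd9 and Brd7, which belong to alternative SWI/SNF complexes, averaged 4.05 ± 0.25 and 4.03 ± 0.27 and overlapped. Brd1 averaged 3.79 ± 0.30 and Brd8, of the TIP60 complex, was lowest with 2.47, 1.92, 1.29 and 1.70. The paralogous acetyltransferases Ep300 and Crebbp were low. Ep300 had 1.70, 0.46, 0.59 and 0.51 and Crebbp 1.55, 0.73, 0.90 and 0.52, with a difference of -0.11 ± 0.22 that had 1 sign in 3 of 4 libraries.

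Of 10 SETD and DOT1L genes, all detected, Setd3, whose known substrate is actin, led with 5.45, 5.57, 5.15 and 5.22. Setd8, which monomethylates histone H4 in the cell cycle, averaged 4.20 ± 0.22 and Setd6 4.01 ± 0.39. Setd1a had 4.19, 4.08, 3.52 and 3.94, with 51.8% of its exon bases shared with Gm49388 on the same strand, and its COMPASS paralog Setd1b had 2.00, 0.84, 0.10 and 1.38. Setd1a was higher by 2.85 ± 0.57. Setd7, a methyltransferase of histone and other proteins, had 4.05, 2.96, 2.06 and 2.36. Dot1l, Setd5 and Setd2 averaged 2.05 ± 0.38, 1.73 ± 0.60 and 1.59 ± 0.75, and Setd4 was lowest with 0.55, 0.37, 0.10 and -0.48.

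Prmt1, the main enzyme of asymmetric arginine methylation, had the highest mean level of all 88 rows, ahead of Chd4. Its levels were 6.11, 7.06, 7.37 and 7.02 (chromosome 7, 44975989 to 44986492), lowest in library 1, where Chd4 was higher. Without library 3 the order turned (6.73 for Prmt1, 6.84 for Chd4), and without division by length Chd4 was also higher (9.74 against 8.63). Prmt5, the main symmetric enzyme, had 5.12, 5.36, 5.47 and 5.41, and lay below Prmt1 by 1.55 ± 0.39 in each library. Prmt2, Prmt7, Prmt6 and Prmt3 averaged 4.72 ± 0.42, 3.81 ± 0.17, 3.16 ± 0.21 and 2.30 ± 0.52, and the lowest detected, Prmt10 (Prmt9 in the annotation used), had 2.27, 2.03, 1.80 and 1.68. Of Prmt6, 23.4% of the exon bases overlap an antisense gene. Prmt8, a membrane-anchored form of brain, was without reads throughout. A count of 0 allows, by the same one-sided limit, up to 3 reads per library.

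The 30 pairs of related genes compared above were tested within libraries. For 27 pairs the difference had 1 sign in 4 of 4 libraries, and the other 3 were Hdac6 with Hdac10, Ezh2 with Ezh1, and Ep300 with Crebbp. Hdac9, Kdm6a, Chd7, Dnmt3b and Tet1, all below detection, were the lower genes of their pairs. The share over other pairs of genes was not computed, so the count is not read as a result about these pairs. Of the 27, 26 kept the sign with the longest transcript as length, and the exception was Smarca4 with Smarca2. The sizes were less stable than the signs. Hdac3 minus Hdac8 went from 1.92 to 1.00 and Sirt2 minus Sirt1 from 2.97 to 3.95. The SD given with each difference does not cover the choice of length. For each of the 27, p was 0.125 (exact permutation of signs, two-sided), or 0.139 after Benjamini-Hochberg adjustment over the 30 pairs. With 4 libraries 0.125 is the smallest p that the 16 sign arrangements allow, so no pair could pass a threshold of 0.05.

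**Figure D2:**
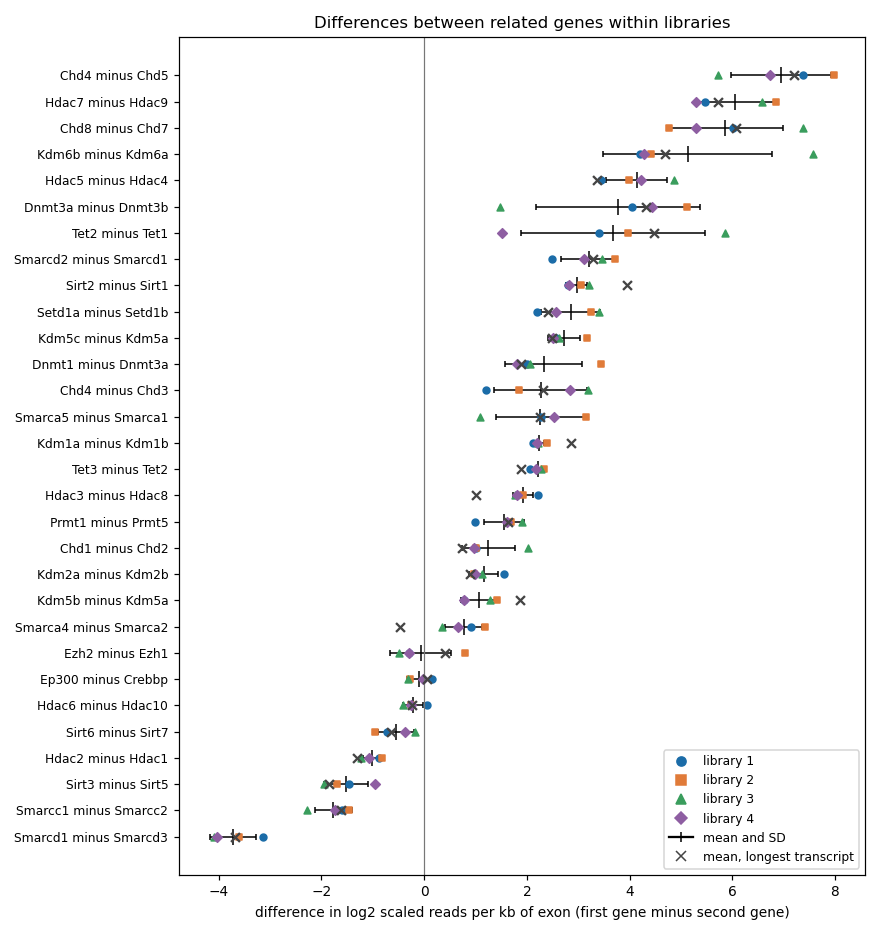
Difference in level (log2 scaled reads per kb of exon, x axis) for 30 pairs of related genes, with each library as a point, the mean and SD in black and the mean by longest transcript as a cross. The crosses of Smarca4 minus Smarca2, Ezh2 minus Ezh1 and Ep300 minus Crebbp lie on the other side of 0 from the mean, at -0.47, 0.41 and 0.06.

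The members differed between libraries in one main direction. Library 1 was highest for 59 of 81 detected rows (72.8%), against 53.6% of all detected rows, and library 3 was lowest for 57 (70.4%), against 52.9%. Both held together for 48 members, and for 38.0% of all detected rows. Part of this was common to all genes: scaling by median ratios instead of the deposited scaling moved the median of detected genes by -0.32, -0.09, 0.30 and 0.12 in libraries 1 to 4. After it, library 1 was highest for 35 members (43.2%; 31.0% of all) and library 3 lowest for 34 (42.0%; 28.7% of all).

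Some members ran against this direction. On the deposited scale library 1 was lowest for 7 detected members (8.64%; 16.3% of all detected rows), and after median-ratio scaling for 19 (23.5%; 34.4% of all). The 7 were Prmt1, Prmt5, Prmt6, Prmt7, Smarcal1, Smarcb1 and Hdac10, named after their values were seen. Among them were 4 of the 7 detected arginine methyltransferases. The others of that class, Prmt2, Prmt3 and Prmt10, were highest in library 1 on the deposited scale. Prmt1 had 6706 reads in library 1 and 12195 to 12911 in the others.

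**Figure D3:**
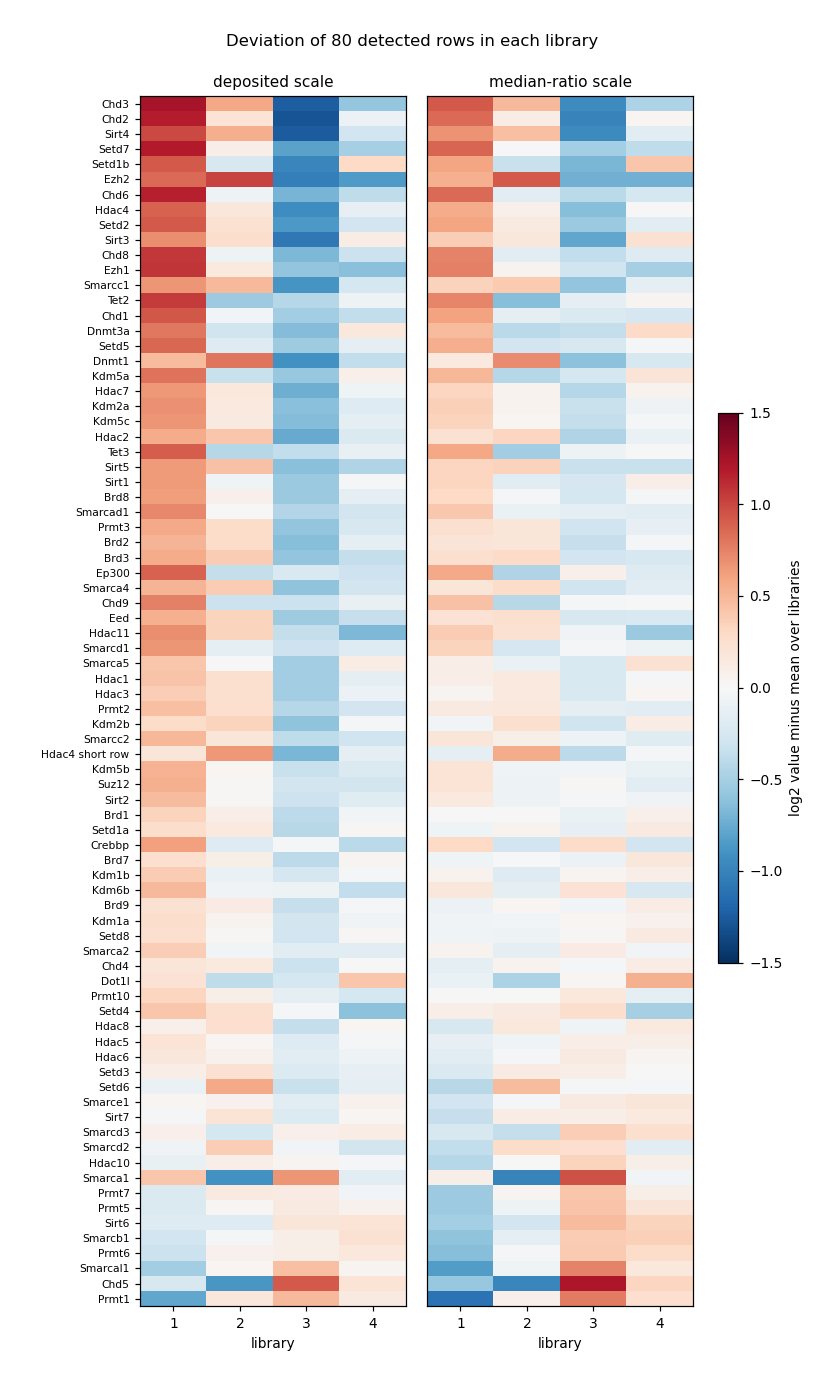
Log2 value of 80 of the 81 detected rows in each library minus its mean over the libraries (colour), on the deposited scale and after median-ratio scaling, sorted by library 1 minus library 3. Most rows are red in library 1 and blue in library 3 on the deposited scale, where library 1 is highest for 59 of all 81; Prmt1, Chd5 and Smarcal1 at the bottom run the other way on both scales.

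The SD between libraries exceeded 0.5 for 38 of 81 detected members (46.9%), against 40.5% of all detected genes, and the median SD was 0.45 against 0.43. These counts rested on library 1 and on the scaling. Without library 1, 17 members passed (21.0%; 27.2% of all), and with median-ratio scaling 16 did (19.8%; 30.9% of all). The SD of every one of the 81 was above that of counting error alone, as for 99.4% of all detected rows.

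The 8 detected members with the largest SD were Chd3 (1.12), Ezh2 (1.08), Chd2 (1.02), Sirt4 (0.99), Setd7 (0.88), Chd6 (0.82), Setd1b (0.80) and Ezh1 (0.80). Each kept an SD above 0.5 after median-ratio scaling, from 0.55 for Ezh1 to 0.85 for Chd3 and Ezh2. Chd3 had 12846, 8067, 1747 and 3666 reads, a 5.58-fold range on the deposited scale. Sirt4 had 461, 338, 74 and 192 reads, a 4.72-fold range, and Setd7 5203, 2432, 989 and 1631 reads, a 3.97-fold range. On the median-ratio scale Chd5 (0.97), Smarca1 (0.80, with 31 to 78 reads), Prmt1 (0.79) and Smarcal1 (0.66) joined the 8 most variable members, each highest in library 3.

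At the other end, Hdac10 (SD 0.09), Smarce1 (0.11), Hdac6 (0.14), Prmt5 (0.15) and Hdac5 (0.16) varied least on the deposited scale. After median-ratio scaling the least variable were Kdm1a (0.06), Brd1 (0.07), Brd9 (0.09), Setd8 (0.10) and Sirt2 (0.10).

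Exon length moved with the difference between libraries. The detected members had a median exon length of 6.76 kb, against 4.21 kb for all detected genes, and 53 of 81 were above 5.59 kb, as were 4035 of 12100 detected genes with a length. Among these longest genes, library 1 exceeded library 3 by a median of 1.15 for members and 0.94 for all genes, and 32 of the 53 members had an SD above 0.5 (60.4%; 50.9% of all). Between 3.09 and 5.59 kb the medians were 0.64 and 0.62, and 4 of 24 members passed (16.7%; 37.3% of all). Below 3.09 kb there were only 4 members, of which 2 passed (33.0% of all), and the medians were 0.55 and 0.24. Across genes the Spearman rho of exon length with this difference was 0.47 over 81 members and 0.34 over 12100 detected genes, a description, since all points share the same libraries. When the linear trend of each library with log2 exon length was subtracted, 10 members had an SD above 0.5 (12.3%), against 27.9% of all detected genes, and 8 of the 10 were among the 38. Mitochondrial genes took 0.0653% of reads in library 1 and 0.382% in library 3, and the part of RNA quality in these values was not tested.

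**Figure D4:**
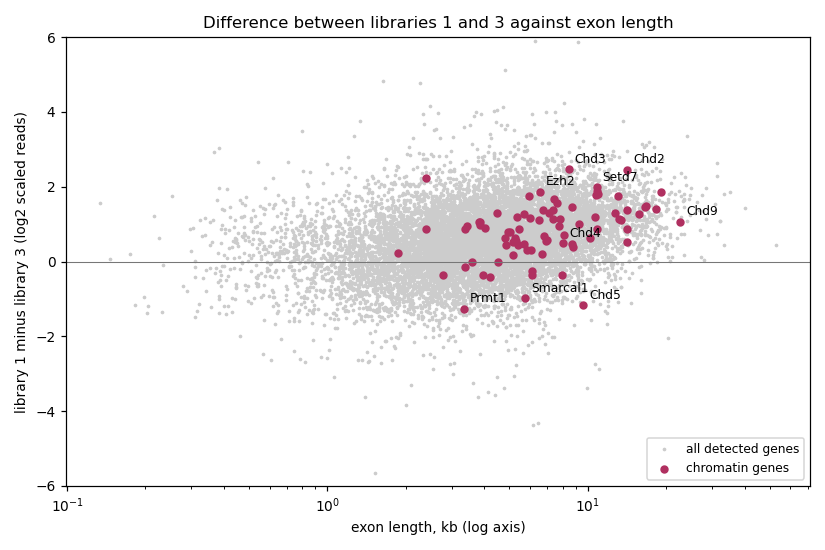
Library 1 minus library 3 (log2 scaled reads, y axis) against exon length (kb, log axis) for 81 members in red and 12100 detected genes in grey. The cloud rises with length (Spearman rho 0.34; 0.47 in the members), and Chd3, Chd2 and Setd7 lie high while Prmt1, Chd5 and Smarcal1 lie below 0.

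Dnmt1 and Ezh2 were highest in library 2, the library with the highest cell cycle markers. On the deposited scale 12 of 81 detected members were highest there (14.8%), against 23.6% of all detected rows. After median-ratio scaling 17 were (21.0%; 21.6% of all). Besides Dnmt1 and Ezh2, the 12 were Hdac8, Hdac10, the short Hdac4 row, Sirt7, Setd3, Setd6, Smarcd2, Smarce1, Kdm2b and Prmt7. Setd8, which acts in the cell cycle, was highest in library 1 on the deposited scale. Dnmt1 and Ezh2 were named with their values known. The 10 cell cycle markers were all detected, with 26189, 42172, 9165 and 15533 summed reads in libraries 1 to 4, and the proliferation marker Mki67 had 2958, 5859, 1172 and 1931. Dnmt1 had 3479, 4357, 1010 and 1972 reads and Ezh2 751, 833, 155 and 234. Relative to their own means, Dnmt1 deviated by 0.15, 0.71, -0.61 and -0.24 after median-ratio scaling, Ezh2 by 0.53, 0.92, -0.72 and -0.72, and the cell cycle markers by a median of 0.08, 1.02, -0.63 and -0.36. Ezh1 was instead highest in library 1, at 0.75, 0.05, -0.30 and -0.50. The smooth muscle markers, at -0.46, -1.30, 0.85 and 0.97, and the adventitial fibroblast markers, at 0.93, 0.79, -0.62 and -1.26, also separated these libraries, and their part in the differences was not tested. With 4 libraries no correlation across them was computed.

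**Figure D5:**
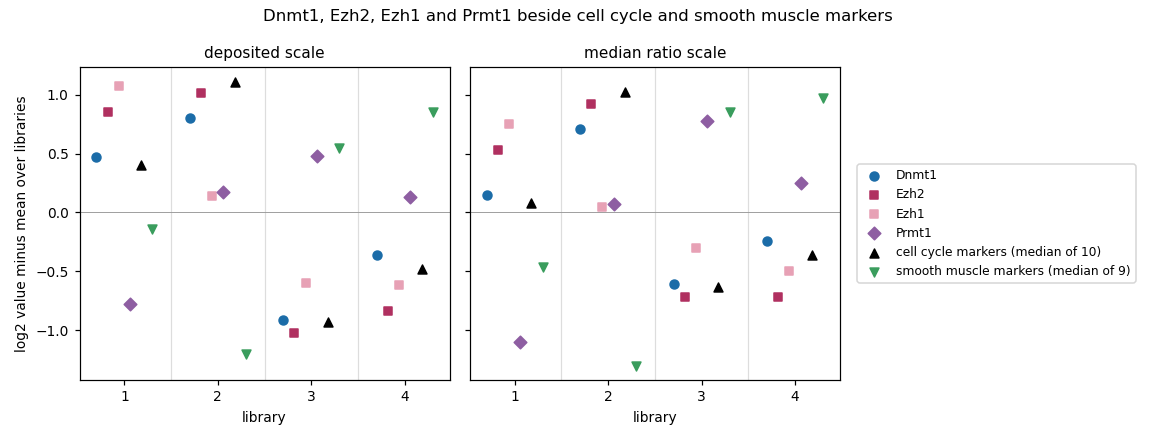
Log2 value minus the mean over libraries (y axis) in libraries 1 to 4 for Dnmt1, Ezh2, Ezh1, Prmt1 and the medians of 10 cell cycle and 9 smooth muscle markers, on the deposited scale and after median-ratio scaling. Dnmt1, Ezh2 and the cell cycle median are highest in library 2 on both scales (0.71, 0.92 and 1.02 after median-ratio scaling), where the smooth muscle median is lowest.

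Most partners of these enzymes were detected as well, against 47.4% of all deposited rows. That share covers every row, while the lists hold chosen genes, so the sets are unlike. All 9 NuRD partners were detected at a median level of 4.55, led by the methyl-CpG-binding family member Mbd3 (8.10) and the histone chaperone Rbbp7 (6.70). Of these, 2 of 9 had an SD above 0.5 (40.5% of all detected genes), or 1 after median-ratio scaling (30.9% of all). All 14 SIN3, CoREST and NCoR genes were detected (median 2.72), with Sap18 (6.13) and Sin3b (5.22) highest. Of 18 SWI/SNF partners, which include the members Brd7 and Brd9, 14 were detected. The other 4 were the neuronal Actl6b without reads, Dpf3 with 3 reads in library 1 alone, and the lymphoid and neuronal Bcl11a and Bcl11b with at most 8 and 17 reads.

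All 13 genes of a list of ISWI, INO80 and related remodellers were detected and 11 had an SD above 0.5, against 40.5% of all detected genes. The list includes Atrx and Hells, and Hells is also counted among the 11 DNA methylation partners below. After median-ratio scaling 4 of the 13 did (30.9% of all), Baz1a, Baz1b, Bptf and Hells, named after their values were seen. Baz1b, a subunit of the WICH complex, was among them with 12607, 11258, 2681 and 5603 reads. All 7 PRC2 accessory genes and all 18 PRC1 genes were detected, at medians of 3.09 and 1.79. Phf19, an accessory subunit of PRC2, was the most variable of the first group with 399, 725, 54 and 203 reads, and Ring1 (5.21) and Cbx6 (4.95) were the highest PRC1 genes. Of 11 DNA methylation partners 10 were detected, all but Cxxc4. Uhrf1, which brings Dnmt1 to replicated DNA, had 2659, 3559, 630 and 1040 reads, highest in library 2 and lowest in library 3 as was Dnmt1. The MLL/COMPASS genes (10 of 10 detected, median 3.18) and the other acetyltransferases (11 of 11, median 2.46) completed the lists, and Kat2a (4.09) was the highest acetyltransferase gene. An SD above 0.5 on the deposited scale was found for 7 of 14 SIN3, CoREST and NCoR genes and 6 of 14 SWI/SNF partners. It was found for 3 of 7 PRC2 accessory genes, 9 of 18 PRC1 genes and 4 of 10 detected DNA methylation partners. The MLL/COMPASS genes had 4 of 10 and the other acetyltransferases 7 of 11. In that order, median-ratio scaling gave 5, 4, 2, 5, 4, 2 and 3.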

How the data were processed

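Libraries were made from total RNA (integrity numbers given in the labels) with a strand-preserving poly(A) kit, as the labels' protocols state. The submitters' processing notes name TopHat, Trim Galore, cutadapt and the build GRCm38. Which counting tool, strand setting and annotation were used is not given in the sources used here. The authors deposited log2 values, which by their steps are whole read numbers multiplied by a library constant and logged, without division by gene length and with a floor of 0.9 read for rows without reads. Whole reads were recovered from these steps (99.7% to 99.8% of values within 0.05 read of a whole number). Their unit is not given and a fragment may be counted more than once. Intervals and floors cover counting error only, as reads lacking molecular identifiers need not be independent molecules.

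Exon lengths came from GENCODE M21 on GRCm38, as the union of exons inside each deposited row (all 88 members, 94.5% of rows). Older symbols were matched through the reference tables where positions overlapped. Members, gene lists and pairs were chosen with earlier results of these data known. Values by library are given for the highest and lowest detected gene of a class, the genes of the pairs, the 8 members with the largest SD and every member below detection. P-values measure only the spread between these 4 libraries. Alternatives were other detection and SD thresholds, median-ratio size factors, other length definitions, no filter on low values, and leaving out each library. Chosen after seeing the data were the joined Hdac4 rows, the subtraction of the trend with length, median-ratio counts for the partner lists and for the highest or lowest library, and the order of Prmt1 and Chd4 under other settings. The values of 1 member, and pairs with it, are not reported here, though it is counted among the members. The steps were tested on simulated reads. Software was pandas 2.3.3, scipy 1.17.1 and numpy 2.4.6 under Python 3.11.15, with plots from matplotlib 3.10.9.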

Additional observations from a re-analysis of the deposited data

Results flagged for a closer look

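Among 81 detected levels and 30 differences, 8 had 1 library far from the other 3 by Dixon's ratio. The ratio is the gap to the nearest library over the whole range, flagged past its 95% critical value. Chance alone flags about 1 in 20. Of the 81 levels 4 were flagged, near that rate, and of the 30 differences 4 were. The share over all detected rows was not computed, so the flags are not read as results about these genes. The levels were those of Ep300 (ratio 0.894; library 1 high at 5.45 log2 scaled reads, the others at 4.21 to 4.34) and Smarcd1 (0.836; library 1 high at 4.63, the others at 3.66 to 3.82). Smarcd3 had library 2 low (0.887; 7.66, the others at 8.00 to 8.04) and Smarce1 library 3 low (0.864; 7.02, the others at 7.22 to 7.25). The differences in level were Chd1 minus Chd2 (0.967; 2.03 in library 3, the others at 0.97 to 1.01) and Kdm6b minus Kdm6a (0.934; 7.58 in library 3, the others at 4.2 to 4.42). Dnmt1 minus Dnmt3a (0.836; 3.44, the others at 1.80 to 2.07) and Ezh2 minus Ezh1 (0.842; 0.80, the others at -0.49 to -0.29) had library 2 high. The levels of Smarcd3 and Smarce1 are flagged within narrow ranges, with SDs of 0.18 and 0.11.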

How the results depend on the processing

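Of 205 alternative values, 191 kept their direction or stayed near the reported value. For the 27 pairs with 1 sign in every library, leaving out a library could not turn the sign. Those values were therefore fixed in advance and say nothing about robustness. The number of detected members, 81, ranged from 79 to 87 over the alternatives. The median level of 2.73 moved to 3.41 with the longest transcript, which is shorter than the union of exons by construction. The 38 members with an SD above 0.5 became 16 with median-ratio size factors, 10 after the trend with exon length was subtracted (an alternative chosen after seeing the data) and 3 at an SD above 1, and ranged from 17 to 43 when a library was left out, the lowest without library 1. The cause of these changes was not tested. Without division by length, Hdac6 minus Hdac10 turned to 0.57, Smarca4 minus Smarca2 to -0.36 and Ep300 minus Crebbp to 0.28. With the longest transcript, Smarca4 minus Smarca2 turned to -0.47, Ezh2 minus Ezh1 to 0.41 and Ep300 minus Crebbp to 0.06. Ezh2 minus Ezh1 ranged from -0.36 to 0.07 when a library was left out. No paired analysis was possible because there was only 1 group. Depth limits the members with under 30 reads in a library: Prmt8, Tet1, Dnmt3b, Dnmt3l, Chd7, Kdm6a and Hdac9.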

Other observations

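The 87 genes lay on 20 chromosomes, with 9 on chromosome 10 and 8 each on chromosomes 6 and 11, and 6 pairs of different genes lay within 500000 bases of each other. The closest were Chd3 and Kdm6b, 29102 bases apart on chromosome 11, at mean levels of 4.47 and 2.94, and Kdm2b and Setd1b, 127113 bases apart on chromosome 5, at 2.06 and 1.08. The 5 X-linked genes ranged from Kdm5c (4.29) to Kdm6a (-2.18, below detection).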
